A study of Homo sapiens with 4 samples.

Results

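The genes described here encode isozymes of the glycolytic enzymes hexokinase, phosphofructokinase, aldolase, phosphoglycerate kinase and enolase, in PC-3M-luc cells depleted of LSD1. They are HK1, HK2, PFKM, PFKL, PFKP, ALDOA, ALDOC, PGK1, ENO1 and ENO2, 10 of the 22852 gene symbols in the count tables. They were chosen by name, not by a measured value, but with earlier results of these data known. PC-3M-luc, a luciferase-tagged line of human prostate cancer cells that needs no androgen, was used at passages 17 to 20 and grown in EMEM with serum and glutamine. RNA was sequenced 72 h after transfection with Dharmafect 2, in 2 libraries that received the control RNAi and 2 that received RNAi against LSD1. The labels call the libraries of a group biological replicates, and they give RNAi as the treatment where the series' design text speaks of a KO. Whether replicates came from separate cultures is not said, so the p-values measure the spread between these libraries.

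Glycolysis splits glucose into pyruvate in the cytosol, and several of its steps can be carried out by enzymes from different genes. Isozymes of a family catalyse the same reaction but differ in regulation and in the tissues that use them, and tumour cells are known for a high rate of glycolysis even with oxygen at hand. Several glycolytic genes are textbook targets of the hypoxia-inducible factors. LSD1, encoded by KDM1A, removes methyl groups from lysine 4 of histone H3.

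KDM1A, the targeted gene, had 235.1 and 238.1 CPM (normalized counts scaled to a fixed library size) in the control libraries and 17.85 and 18.09 CPM in the knockdown libraries, or 7.59% of control (log2 fold change -3.72, edgeR adjusted p = 3.18e-24). Summed over the transcript row with the highest mean for each symbol, counts ranged from 12041277 to 12832072 per library. The epithelial keratin genes KRT8, KRT18 and KRT19 had at least 2408 counts in each library, whereas the luminal prostate genes KLK2, KLK3 and FOLH1 had 0 in all 4. Of 6 epithelial markers 3 rose (KRT8, EPCAM and CDH1), and all 6 together summed to between 1000.5 and 1114.6 CPM. Among markers of other cells, 1 of 5 leukocyte genes rose and 2 fell, with PTPRC and CD3E at 0. The 5 summed to 91.1 and 88.9 CPM in the control and 47.4 and 49.9 CPM in the knockdown libraries. Most of this was CD68, at 86.7 and 86.0 CPM in the control and 44.8 and 46.8 CPM in the knockdown libraries. Of 6 fibroblast or endothelial genes 2 rose and 1 fell, with sums of 70.4 and 82.2 CPM against 113.4 and 111.6 CPM, and erythroid genes summed to at most 0.329 CPM. Their part in the results was not tested. In such bulk RNA, fewer cells that express a gene and less RNA of it per cell cannot be told apart.

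Of the 10 isozyme genes, 6 fell after LSD1 knockdown (ENO2, PGK1, PFKP, ALDOA, HK1 and PFKL), 1 rose (PFKM) and 3 did not pass the test (ENO1, HK2 and ALDOC), at an adjusted p under 0.05 in edgeR's quasi-likelihood test over 13252 genes. Among all genes tested 17.9% were called lower and 18.2% higher. The median log2 fold change of the 10 was -0.35, against 0.0024 over all genes tested. The groups did not overlap for 9 of the 10, the exception being ALDOC, and for 67.2% of all genes tested. All 10 were abundant enough to be tested, with 115 counts or more in every library.

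**Figure D1:**
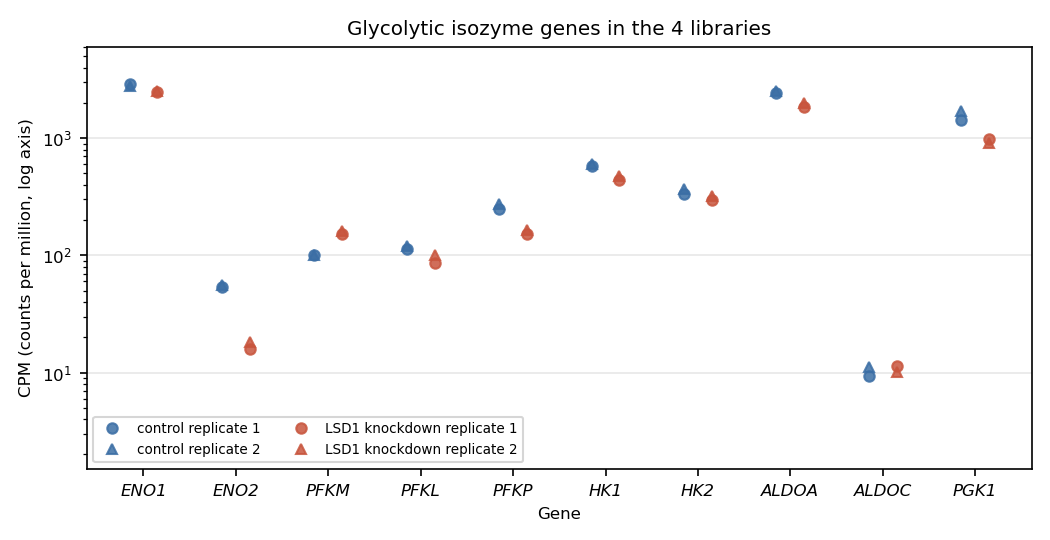
CPM of the 10 isozyme genes (log axis) in each of the 4 libraries, with control libraries in blue and LSD1 knockdown libraries in red. ENO2 was at 54.2 and 55.3 CPM in control and at 15.9 and 18.1 CPM in knockdown libraries, PFKM was higher in both knockdown libraries, and the ALDOC points overlap.

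Per kilobase of transcript, the levels in control cells followed the order ALDOA, ENO1, PGK1, HK1, PFKP, HK2, PFKL, PFKM, ENO2 and ALDOC. Mean levels ran from 1493 CPM per kb for ALDOA through 163.8 for HK1 to 5.16 for ALDOC. No 2 neighbours in this order overlapped between the control libraries, although it rests on annotated transcript lengths. The lead of ALDOA over ENO1 also rests on the row used. That row had 2442 and 2550 CPM in the control libraries, and the lowest ALDOA row 1799 and 1723 CPM. Per kilobase of coding sequence, ENO1 stood above ALDOA and HK2 above PFKP. In the knockdown libraries PFKM stood above PFKL, and the other genes kept their place.

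**Figure D2:**
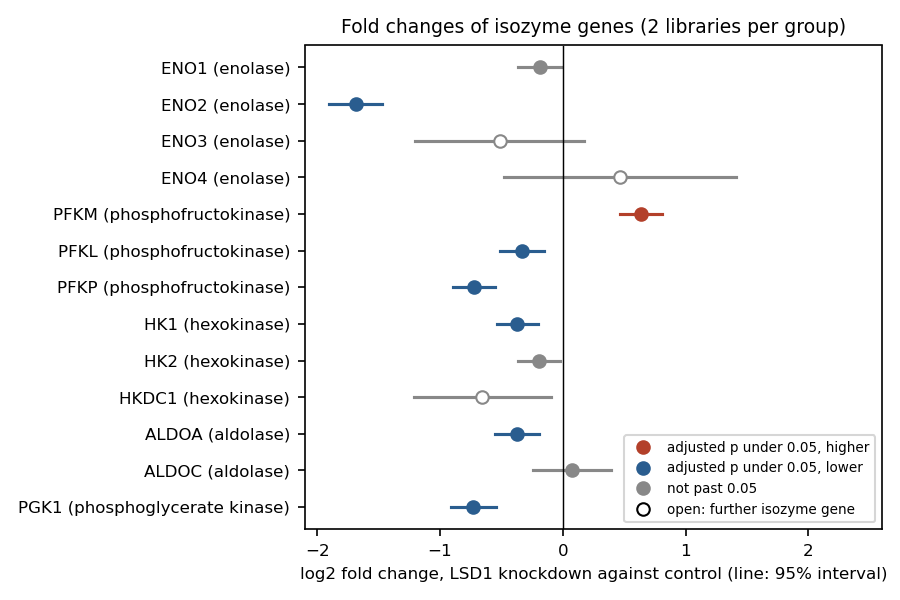
Log2 fold change of LSD1 knockdown against control (horizontal axis) with its 95% interval, for the 10 isozyme genes (filled) and 3 further isozyme genes of the same families that were tested (open). PFKM at 0.64 lies opposite its family members PFKL at -0.33 and PFKP at -0.72, and ENO2 at -1.69 lies far from ENO1 at -0.19.

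Short stretches of promoter are shown here because the letters ACGTG form the core of the best known hypoxia response elements. RefSeq (GRCh38.p14) gave 28 windows of 250 bases before an annotated start for the 10 genes, all of which matched by symbol. On either strand ACGTG stood in 10 of these windows, which belong to 7 genes, against 18.5% of 35116 windows of all genes. Windows of a gene with several starts overlap in part, so they are not independent. Windows can also lie in annotated exons of their gene. Of the windows with a stretch shown, all 250 bases did so for ENO2 and ALDOC, 225 for ALDOA and 189 for PFKM. For PGK1 it was 74 bases, and for PFKP and HK2 it was 0. At least 1 stretch is shown for each of the 7 genes and others are left out: ALDOA, HK2 and ALDOC hold more matches than are printed, and both HK2 windows hold some. Each stretch below is written 5′ to 3′ on the gene's strand with 10 bases on either side, and capitals mark ACGTG or its reverse complement CACGT, which overlap in CACGTG.
ENO2, chr12:6914452-6914476, plus strand, 118 bases before the start: ccgcgctcgtACGTGcgcctccgcc
PGK1, chrX:78104036-78104060, plus strand, 202 bases before: ggcgtgccggACGTGacaaacggaa
PGK1, chrX:78104055-78104079, plus strand, 183 bases before: acggaagccgCACGTctcactagta
PFKP, chr10:3069040-3069064, plus strand, 139 bases before 1 of 4 starts: acgagcgcctACGTGatgcccggcc
PFKM, chr12:48105349-48105373, plus strand, 122 bases before 1 of 7 starts: atccagagatCACGTtagggtacac
HK2, chr2:74835011-74835036, plus strand, 149 bases before 1 of 2 starts: ccggcgagagCACGTGgagagaatcg
ALDOA, chr16:30064375-30064400, plus strand, 112 bases before 1 of 3 starts: gcagggaggcCACGTGatccgagtcc
ALDOC, chr17:28576909-28576933, minus strand, 28 bases before: ccggaggagtCACGTagctctgcga

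The letters stood before genes of every outcome. Of the genes that fell, ENO2, PGK1, PFKP and ALDOA held it and HK1 and PFKL did not. PFKM, which rose, held it before 1 start, and of the genes that did not pass, HK2 and ALDOC held it and ENO1 did not. GCGTG, which differs from ACGTG in the first letter, stood before starts of ENO1, HK1 and PFKL, and of ALDOC, HK2, PFKP and PGK1. It stood in 32.2% of all windows. CACGTG, the E-box form, stood before starts of ALDOA, ALDOC and HK2 and in 6.34% of all windows. Both percentages count windows, not genes, and HK1, PFKP, ALDOA and HK2 have 7, 4, 3 and 2 windows. The percentages are thus no yardstick for the number of genes named. These matches are letters in a window and not known sites of a factor.

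The hexokinases phosphorylate glucose as it enters the cell. HK1, the form found in most tissues, had 581.3 and 599.9 CPM in the control and 441.0 and 474.0 CPM in the knockdown libraries. Both knockdown values lay below both control values, and HK1 fell 1.29-fold (log2 fold change -0.37, standard error 0.0818, edgeR adjusted p = 0.000581). HK2, the inducible form that is abundant in many tumours, had 336.7 and 371.7 CPM in the control and 296.7 and 323.2 CPM in the knockdown libraries. These groups did not overlap either, but the log2 fold change of -0.19 (standard error 0.0829) did not pass (edgeR adjusted p = 0.068). The HK2 call depended on the setting: its adjusted p was 0.0289 with the replicate number as a block, 0.0392 without control replicate 1 and 0.0414 in a fit of all deposited rows.

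Within the family, HK1 held 73.1% and 71.8% of hexokinase transcripts per kilobase in the control and 70.2% and 69.8% in the knockdown libraries, with HK2 at 26.4%, 27.8%, 29.5% and 29.7% in the same order. The HK2 share was thus 2.51 percentage points higher on average, with no overlap between groups. That difference was 1.84 without control replicate 1 and 3.18 without control replicate 2, and 0.82 with rows summed, which counts most HK1 reads repeatedly. With 2 libraries a group, the exact two-sided permutation test cannot go below p = 0.333, the value it gave for HK2 and for all non-overlapping shares reported here. The log2 ratio of HK1 to HK2 moved by -0.18 with a 95% interval of -0.41 to 0.061, so a shift between the 2 was not established. HKDC1, a hexokinase-like gene, had 52 and 48 counts in the control and 21 and 44 in the knockdown libraries and did not pass (edgeR adjusted p = 0.0592). HK3, another hexokinase gene, had 0 counts in all 4 libraries, which allows up to 0.232 to 0.247 CPM (3 counts, counting error only).

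Phosphofructokinase carries out the committed step of glycolysis, and its subunits M (muscle), L (liver) and P (platelet) assemble into tetramers. PFKM had 99.8 and 101.3 CPM in the control and 152.0 and 161.2 CPM in the knockdown libraries. It rose 1.56-fold, the only one of the 10 genes called higher (log2 fold change 0.64, standard error 0.0828, edgeR adjusted p = 2.59e-07). PFKP went the other way, from 246.4 and 275.5 CPM to 152.4 and 163.5 CPM. It fell 1.65-fold (log2 fold change -0.72, standard error 0.0835, edgeR adjusted p = 3.03e-08). PFKL had 114.3 and 120.3 CPM in the control and 85.6 and 100.3 CPM in the knockdown libraries and fell 1.26-fold (log2 fold change -0.33, standard error 0.0884, edgeR adjusted p = 0.00314). That PFKL call was lost without knockdown replicate 1, where the log2 fold change was -0.23 (edgeR adjusted p = 0.0841).

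In control cells PFKP was the leading phosphofructokinase transcript, and after knockdown PFKP and PFKM stood closer. PFKP held 56.9% and 58.8% of the family's transcripts per kilobase in the control and 42.9% and 42.2% in the knockdown libraries. PFKM held 19.0% and 17.8% in the control and 35.2% and 34.2% in the knockdown libraries, a mean gain of 16.3 percentage points against replicate SDs of 0.837 and 0.683. The PFKL share, from 23.4% to 24.1% in the control and from 22.0% to 23.6% in the knockdown libraries, overlapped between groups, and its mean difference of -0.967 percentage points lay between -1.78 and -0.15 with single knockdown libraries left out. The ratio of PFKM to PFKP, which needs no transcript length for its change, moved by 1.36 on the log2 scale (95% interval 1.12 to 1.60). Against PFKL the PFKM ratio moved by 0.97 (0.73 to 1.22), and the ratio of PFKP to PFKL moved by -0.39 (-0.64 to -0.14). Summed over the 3 genes, phosphofructokinase transcripts were at 163.1 and 176.5 CPM per kb in the control and 134.0 and 146.1 CPM per kb in the knockdown libraries, 82.5% of control.

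**Figure D3:**
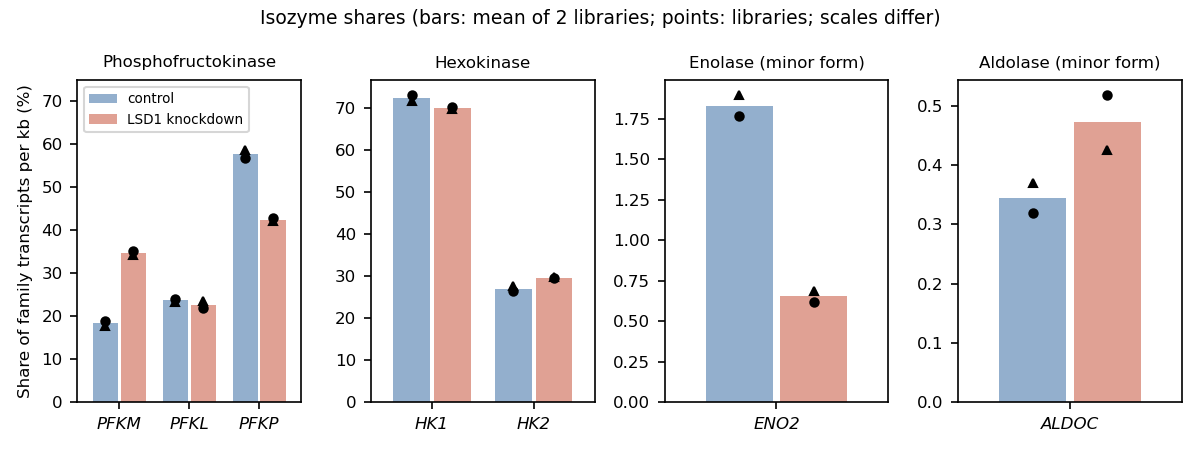
Share of each isozyme in its family's transcripts per kilobase (vertical axes, percent, scales differ), as the mean of 2 libraries (bars) with each library as a point. PFKM went from 18.4% to 34.7% and PFKP from 57.9% to 42.5% of phosphofructokinase transcripts, while HK2 moved from 27.1% to 29.6% of hexokinase transcripts.

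Markers of skeletal muscle, the tissue PFKM is named for, were near the detection limit. Of 7 such markers CKM and TNNT3 had 0 counts in all libraries and none had enough counts to be tested. The 7 summed to 0.161 and 0 CPM in the control and to 0.737 and 1.39 CPM in the knockdown libraries, higher in both knockdown libraries, as PFKM was. The most counted were MB, a muscle oxygen carrier, with 0, 0, 6 and 6 counts and ACTA1, a muscle actin, with 1, 0, 3 and 6. Their part in the PFKM result was not tested.

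Aldolase cleaves fructose 1,6-bisphosphate, and ALDOA is the form of muscle and most growing cells. ALDOA had 2442 and 2550 CPM in the control and 1860 and 1997 CPM in the knockdown libraries, a 1.29-fold fall (log2 fold change -0.37, standard error 0.0863, edgeR adjusted p = 0.00091). This value comes from NM_001243177, the ALDOA row with the most counts, and other rows gave less. Of the 5 ALDOA rows, 2 gave a log2 fold change of -0.38 and were called, whereas NM_000034, NM_184043 and NM_001127617 gave -0.18, -0.18 and -0.20 and did not pass (edgeR adjusted p = 0.0607 to 0.095 over all rows). The row used exceeded NM_184043 by 7016 and 9218 counts in the control libraries and by 3201 and 4348 in the knockdown libraries. That excess was 23.1% and 29.8% of the ALDOA row's counts in the control and 14.1% and 16.8% in the knockdown libraries. The GENCODE transcripts matched to these rows share 1318 exonic bases, with 354 found only in the one and 232 only in the other. The excess was higher in both control than in both knockdown libraries. An annotated gene on the same strand, AC093512.2, overlaps 88.4% of the ALDOA row's transcript, so the counts of the 2 cannot be told apart.

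ALDOC, the form best known from brain, had 9.26 and 11.2 CPM in the control and 11.5 and 10.1 CPM in the knockdown libraries, which overlap. Its log2 fold change of 0.077 (standard error 0.157) did not pass (edgeR adjusted p = 0.738), with a 95% interval of -0.24 to 0.40. It made up 0.319% and 0.369% of aldolase transcripts per kilobase in the control and 0.517% and 0.426% in the knockdown libraries, a difference of 0.128 percentage points that was 0.082 without knockdown replicate 1 and 0.0223 with rows summed. The ratio of ALDOC to ALDOA moved by 0.45 on the log2 scale (0.085 to 0.81), but by 0.27 with an interval that includes 0 (-0.096 to 0.63) when NM_001127617 stood for ALDOA. Exons of ALDOC overlap a gene on the opposite strand over 14.9% of the row, and the counting is not stated to use strand.

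Phosphoglycerate kinase makes the first ATP that glycolysis returns, and somatic cells rely on PGK1. PGK1 had 1440 and 1698 CPM in the control and 983.0 and 912.5 CPM in the knockdown libraries. Both knockdown values lay below both control values. PGK1 fell 1.66-fold (log2 fold change -0.73, standard error 0.0896, edgeR adjusted p = 1.04e-07). PGK2, the testis form, had 0 counts in every library, so PGK1 made up the whole of the family's counts and no isozyme shift could be seen. PGK1 has 1 annotated pseudogene copy named after it, as has HK2, with 2 for ALDOA and 4 for ENO1, and reads shared with such copies make these values uncertain.

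Enolase forms phosphoenolpyruvate, and its main forms are ENO1, found in nearly all tissues, and ENO2, the neuron-specific enolase that also serves as a marker of neuroendocrine tumours. ENO2 had 673 and 672 counts in the control and 194 and 234 counts in the knockdown libraries, or 54.2 and 55.3 CPM against 15.9 and 18.1 CPM. It fell 3.22-fold, the largest change of the 10 (log2 fold change -1.69, standard error 0.107, edgeR adjusted p = 9.71e-14). A fall of at least 1 on the log2 scale was fitted in 1.8% of all genes tested. ENO1 had 2911 and 2771 CPM in the control and 2464 and 2528 CPM in the knockdown libraries. Its groups did not overlap, but the log2 fold change of -0.19 (standard error 0.0861) did not pass (edgeR adjusted p = 0.0896). DESeq2 called it (adjusted p = 0.046), as did edgeR with the replicate number as a block (adjusted p = 0.0472) and with counts summed over rows (adjusted p = 0.0461).

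ENO2 is a minor enolase transcript in this line. It held 1.77% and 1.89% of enolase transcripts per kilobase in the control and 0.619% and 0.686% in the knockdown libraries, a difference of -1.18 percentage points, or -0.655 with rows summed, which counts most ENO1 reads repeatedly. The ratio of ENO2 to ENO1 moved by -1.50 on the log2 scale (95% interval -1.78 to -1.22), a 2.83-fold shift. ENO1 held 98.1% and 98.0% in the control and 99.3% and 99.1% in the knockdown libraries. ENO3, the muscle enolase, had 32, 28, 12 and 31 counts and ENO4 7, 12, 10 and 17 counts in the 2 control and then the 2 knockdown libraries, and neither passed (edgeR adjusted p = 0.248 and 0.467). SHTN1, on the opposite strand, overlaps ENO4 over 1087 bases and had a mean of 859.2 counts, so the ENO4 counts are uncertain.

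Markers of neuroendocrine and neuronal cells moved with ENO2 in part. Of 11 such markers, ENO2 included, 3 were tested and all 3 fell, the others being UCHL1 (log2 fold change -0.46) and TUBB3 (-0.47). The 10 markers other than ENO2 summed to 676.5 and 669.8 CPM in the control and 481.6 and 499.1 CPM in the knockdown libraries. Nearly all of this sum was UCHL1 and TUBB3. UCHL1 alone had 589.6 and 586.3 CPM in the control and 422.9 and 434.1 CPM in the knockdown libraries. NCAM1 and INSM1 had 0 counts in all libraries, CHGA had at most 2 and SYP at most 9. Their part in the ENO2 result was not tested.

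Summed per family, every family was lower in both knockdown libraries than in both control libraries. Among all genes tested, the groups did not overlap, in either direction, for 67.2%. The enolase, aldolase and phosphoglycerate kinase sums were almost wholly ENO1, ALDOA and PGK1, so they add little to those genes. ENO1 by itself did not pass (edgeR adjusted p = 0.0896). Phosphoglycerate kinase stood at 60.4% of control, aldolase at 77.4%, hexokinase at 80.1%, phosphofructokinase at 82.5% and enolase at 86.8%, each with an exact two-sided permutation p of 0.333, the smallest that 2 against 2 allows. The aldolase value rests on the ALDOA row NM_001243177, and 3 of the 5 ALDOA rows gave a smaller decrease, so the place of aldolase in this order depends on the row.

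**Figure D4:**
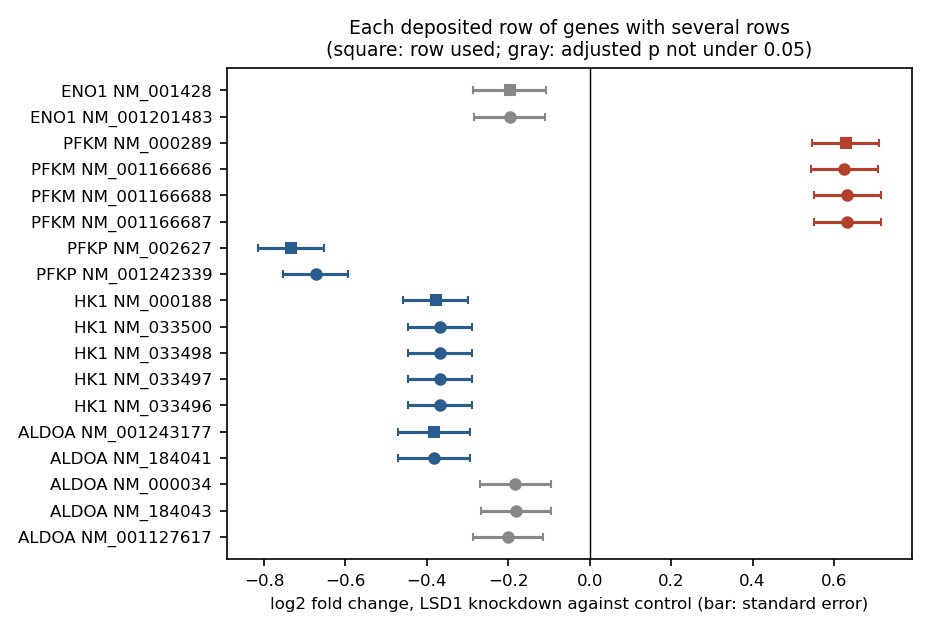
Log2 fold change and standard error for each deposited row of the 5 isozyme genes with several rows, from a fit of 23652 rows, with squares for the row that stood for the gene. The rows of PFKM, HK1 and ENO1 lie close together, those of PFKP at -0.73 and -0.67, and those of ALDOA fall at -0.38 and at -0.18 to -0.20.

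Most genes with several rows gave the same answer from each. All 4 PFKM rows gave 0.63 and the 5 HK1 rows between -0.38 and -0.37 on the log2 scale, and all were called. The PFKP rows gave -0.73 for NM_002627 and -0.67 for NM_001242339, both called. Rows of a gene count mostly the same reads, so they are not replicates of each other.

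Other genes of the route gave mixed counts, to be read against 18.2% called higher and 17.9% lower among all genes tested. Of 8 other glycolytic enzymes tested 3 fell, 0 rose and 5 did not pass, with a median log2 fold change of -0.17. In edgeR 0 of these rose at an unadjusted p under 0.05 either, and DESeq2 called 0 higher and 3 lower. PGAM1, the mutase before enolase, fell 1.27-fold, PKM, the pyruvate kinase after it, 1.27-fold, and GAPDH, the step before PGK1, 1.19-fold. Of 7 tested genes of the SLC2A transporter family 1 fell and 2 rose. SLC2A1, the main glucose carrier of tumour cells, fell 1.59-fold, from 302.4 to 189.9 CPM, while SLC2A12 and SLC2A13 rose 1.72-fold and 1.31-fold. The edgeR adjusted p was 6.09e-08 for SLC2A1, 0.00128 for SLC2A12 and 0.00877 for SLC2A13, and DESeq2 called 1 transporter higher and 1 lower.

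The bifunctional PFKFB enzymes make and remove fructose 2,6-bisphosphate, the activator of phosphofructokinase. Of 4 genes tested in this list 2 fell and 1 rose. PFKFB4 fell 1.91-fold, from 28.2 and 30.8 CPM to 14.98 and 15.92 CPM, and PFKFB3 fell 1.72-fold, from 99.9 and 104.5 CPM to 56.0 and 62.9 CPM. PFKFB2, a form of heart and kidney, rose 1.63-fold, from 15.9 and 19.9 CPM to 29.7 and 28.6 CPM. As among PFKM, PFKL and PFKP, members of this small family went both ways (edgeR adjusted p = 2.02e-07 for PFKFB4, 2.53e-08 for PFKFB3 and 2.4e-05 for PFKFB2).

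Of 19 genes of lactate and pyruvate handling 6 rose, 4 fell and 9 did not pass. Over all genes tested 18.2% were called higher and 17.9% lower. LDHA, which makes lactate, fell 1.55-fold, PDK1, a kinase that holds pyruvate dehydrogenase back, 1.35-fold and the phosphatase gene PDP1 1.41-fold, while PDP2, another phosphatase that activates pyruvate dehydrogenase, rose 1.34-fold. LDHA had 3732 and 3474 CPM in the control and 2430 and 2214 CPM in the knockdown libraries (edgeR adjusted p = 1.03e-06). Among 10 regulators 2 rose and 2 fell, close to the shares over all genes tested, so these counts do not set the list apart. HIF1A, which encodes the hypoxia-inducible subunit, rose 1.22-fold and TXNIP, an inhibitor of glucose uptake, 1.47-fold. EPAS1, the HIF1A relative, fell 1.37-fold and EGLN3, an oxygen sensor, 1.26-fold, with DESeq2 calling 2 regulators higher and 1 lower. The medians of these lists were 0.05 and -0.07, near that of all genes tested.

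**Figure D5:**
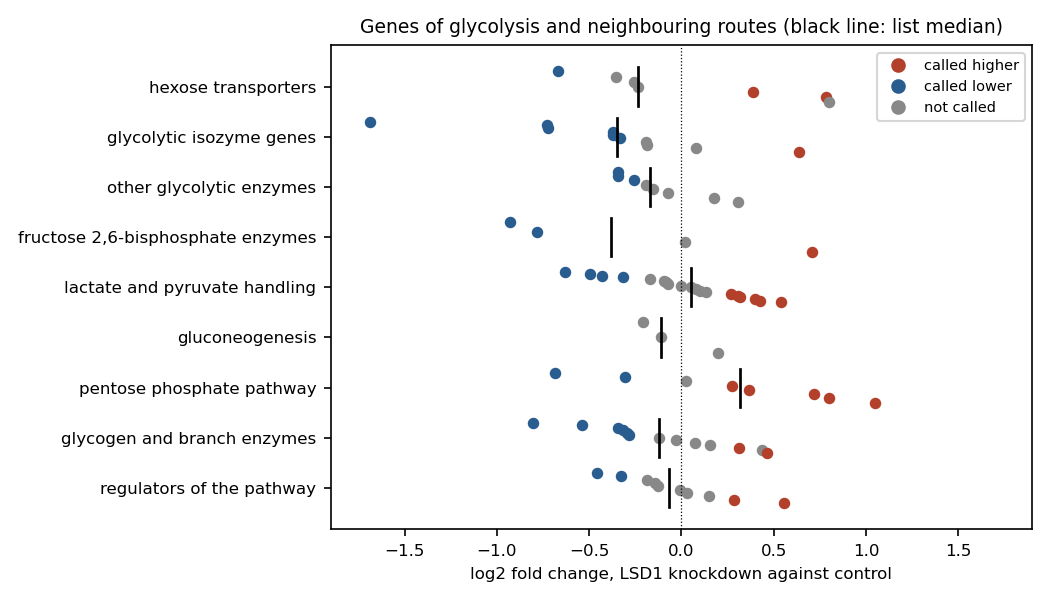
Log2 fold changes (horizontal axis) of the 10 isozyme genes and of the tested genes in 8 lists of neighbouring steps, with the list median as a black line. The isozyme genes have a median of -0.35, other glycolytic enzymes -0.17 and pentose phosphate genes 0.32.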

How the data were processed

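The authors deposited 1 table for each of the 4 libraries, with whole-number counts of reads for each RefSeq transcript that, judged from the values, had not been normalized. Build hg19 and the names DESeq 1.8.3, edgeR, TopHat2 and HOMER appear, without their roles, per the submitters' processing notes. How reads were counted, and whether by strand, is not stated there. Rows (38767 per table) were matched to symbols by RefSeq, then GENCODE release 29, and 1090 unmatched rows (1.38% to 1.4% of counts) were left out. The row with the highest mean stood for each symbol. Total counts over all rows were 22855909 to 24348184.

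Counts were filtered (filterByExpr, count 10, total 15), scaled by TMM and tested with edgeR 4.0.16 in R 4.3.3 (quasi-likelihood test, Benjamini-Hochberg over 13252 genes, threshold 0.05), with 32.1 degrees of freedom for 95% intervals. A ratio's standard error combines those of its 2 genes. Shares divide counts by the length of the matched GENCODE transcript, which may differ from the deposited version. CPM uses TMM library sizes. Scripts were tested on simulated data. Permutation tests used scipy 1.17.1. Alternatives were DESeq2 1.42.0, limma-voom (limma 3.58.1), other scalings and filters, the replicate number as a block, summed rows and leaving out each library. The rows of lowest count were added after seeing the data.

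Named genes were the 10 members, other isozymes of their families, KDM1A, and up to 4 called genes per list by smallest adjusted p; a few of these are not reported here. Members and lists were chosen with earlier results of these data known. Coordinates are of GRCh38.p14, not hg19.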

Additional observations from a re-analysis of the deposited data

How the results depend on the processing

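Over 13 alternatives for each of the 10 genes (130 fold changes), 120 kept their direction and their side of the threshold. ALDOC reversed when a library was left out, with log2 fold changes of -0.057 without control replicate 1 and -0.019 without knockdown replicate 1 (range -0.057 to 0.22). ALDOA lost its call with its lowest row and PFKL without knockdown replicate 1, while ENO1 and HK2 were each called in 3 settings. ENO2 stayed between -1.78 and -1.60, PFKM between 0.60 and 0.68, PFKP between -0.80 and -0.64 and PGK1 between -0.84 and -0.60, called in all 13. DESeq2 called 1564 of all genes higher, in place of 2414. Leaving out 1 library at a time gave 5 to 7 isozyme genes called lower and 1 higher. The replicate numbers shared by the groups were not taken as pairs, since no label ties them (correlation of deviations 0.0793). With the number as a block, 2632 genes were higher and 2631 lower, 8 of the 10 isozyme genes were lower and PFKM was higher, and the share differences, balanced over the numbers, are by construction the same. In percentage points, knockdown minus control, PFKM's share difference was 17.4 by counts without length and 17.4 by coding length. With rows summed, where reads of genes with several rows count repeatedly, differences were -0.655 for ENO2, 21.4 for PFKM, -2.08 for PFKL, -19.3 for PFKP, 0.82 for HK2 and 0.0223 for ALDOC. With the lowest rows they were -1.1 for ENO2 and -2.03 for PFKL. Groups of 2 limit every share to an exact p of 0.333.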

Other observations

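The pentose phosphate pathway, which branches off after hexokinase and yields NADPH and ribose, held more genes that rose than fell. Among its 8 tested genes edgeR called 5 higher and 2 lower (DESeq2 4 and 2), with a median log2 fold change of 0.32, against 0.0024 over all genes tested. Of all genes tested edgeR called 18.2% higher and 17.9% lower. RPIA, the ribose phosphate isomerase, rose 2.07-fold, from 8.94 and 9.88 CPM to 19.6 and 19.4 CPM. PGD, which makes NADPH in the second oxidative step, rose 1.64-fold, from 108.1 and 112.4 CPM to 183.8 and 178.4 CPM, and H6PD, its counterpart in the endoplasmic reticulum, 1.74-fold. TALDO1, the transaldolase that links the pathway back to glycolysis, fell 1.61-fold, from 389.3 and 391.1 CPM to 234.1 and 250.3 CPM.

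Of 13 genes of glycogen and other branches edgeR called 2 higher and 6 lower (DESeq2 2 and 4). GBE1, the glycogen branching enzyme, fell 1.74-fold, GFPT1, which opens the hexosamine route, 1.45-fold and PYGL, a glycogen phosphorylase, 1.27-fold. Of 3 gluconeogenesis genes tested 0 were called by edgeR or DESeq2, with 1 at an unadjusted p under 0.05 in edgeR.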
